A study of Mus musculus with 8 samples.

Results

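The levels of 10 genes that act at entry into mitosis and in cytokinesis were examined in embryonic mouse ventricles with and without cardiomyocyte Pkn2. The 10 genes were listed by name, and PKN2 has reported roles in mitotic entry and abscission. They are Ccnb1, Cdk1, Plk1 and Cdc25b for mitotic entry, and Ect2, Racgap1, Kif23, Prc1, Anln and Cit for cytokinesis. All 10 were found among the 55291 gene symbols of the count table and among the 26820 genes tested. Ventricles at E10.5 gave 8 RNA libraries on a C57BL/6N background. The 4 cKO libraries came from embryos with both Pkn2 alleles floxed and the XMLC2-Cre transgene, and the 4 control libraries from littermates with the same floxed alleles and no Cre. XMLC2-Cre acts in cardiomyocytes, so the other cells of the tissue kept Pkn2. Because the controls carried no Cre, effects of the transgene and of the deletion cannot be told apart. The sources used here do not say how many embryos went into a library or which litter each came from, so p-values measure the spread between these libraries.

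A cell enters mitosis when CDK1, bound to cyclin B1 (Ccnb1), becomes active. CDC25 phosphatases such as CDC25B remove the inhibitory phosphates from CDK1, and Polo-like kinase 1 (Plk1) promotes that step and later ones. After the chromosomes separate, PRC1 bundles the microtubules of the spindle midzone, and KIF23 and RACGAP1 form centralspindlin, which recruits the exchange factor ECT2. ECT2 activates RhoA at the cortex, where anillin (Anln) and citron kinase (Cit) organize the contractile ring and the midbody. In the embryonic ventricle, cardiomyocytes still divide, and most transcripts of this machinery accumulate late in the cell cycle.

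Libraries held 47559845 to 56660938 counts. The 10 genes had 1397 to 10785 counts in each library, for which counting error alone is 2.68% down to 0.963%, so the spread between libraries set the precision. The deleted gene, Pkn2, checks the labels: it measured 144 ± 9.85 CPM in controls against 81.2 ± 3.07 CPM in cKO (CPM, counts relative to the TMM-scaled library size, mean ± SD, n = 4 each). Its log2 fold change was −0.83 (adjusted p = 7.67e-06 by edgeR's quasi-likelihood test). Counts cover the whole gene and not the deleted exon alone. Cardiomyocyte markers were abundant in every library: the summed level of 12 genes was 41607 to 46088 CPM in controls and 41543 to 44742 CPM in cKO.

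None of the 10 genes passed the threshold of an adjusted p of at most 0.05 (edgeR, Benjamini-Hochberg over all genes tested), where 0.858% of all genes tested did (0.343% with lower levels in cKO) and 1.65% of those with a mean of at least 10 CPM. None passed both this threshold and 1.5-fold, as 0.365% of all genes did. The lowest adjusted p was 0.235, for Racgap1. At an unadjusted p under 0.05 there were 3 of the 10, Cdc25b, Ect2 and Racgap1, all with lower estimates in cKO, while 6.2% of all genes tested and 11.4% of the 9858 genes with a mean of at least 10 CPM were lower at that level. DESeq2, which called 5.46% of the genes it tested, also called 0 of the 10 (3 at an unadjusted p under 0.05). With limma-voom, 168 of 26820 genes and 0 of the 10 were called (4 at that unadjusted level). With limma on log2(TPM + 1), only 2 of 26811 genes were called, so its 0 of the 10 (1 at that unadjusted level) carries little weight. The share of all genes at that unadjusted level was taken for edgeR only. The unadjusted counts of the other tools therefore have no background here and cannot be judged. The log2 fold change was below 0 for 9 of the 10 genes, with a median of −0.13. It was below 0 for 50.2% of all genes tested, whose median was −0.00085, and for 59.2% of genes with a mean of at least 10 CPM, whose median was −0.02. The 95% intervals of the 10 genes ran from 78.7% to 116% of the control level at their extremes, so each excluded a change of 1.5-fold.

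**Figure D1:**
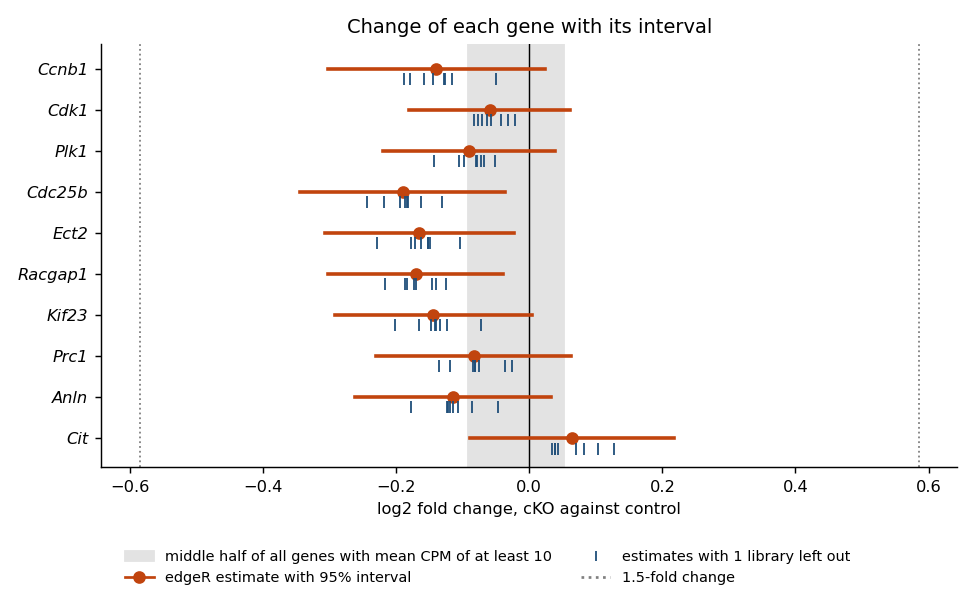
Log2 fold change (cKO against control, horizontal axis) of each of the 10 genes (points) with its 95% interval (lines). Ticks under each line give the estimates with 1 library left out, the grey band spans the quartiles of all genes with a mean of at least 10 CPM, and dotted lines mark a 1.5-fold change. The intervals of Cdc25b, Ect2 and Racgap1 lie below 0, Cit has a positive estimate, and no interval reaches the dotted lines.

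Promoters of 5 of the genes are printed here to show the elements searched for, the CCAAT box and the CHR, described below. Cdk1 and Ect2 hold both, Ccnb1 and Racgap1 hold CCAAT letters only, and Cit holds neither. Sequences are the 150 bases before the RefSeq transcription start on GRCm38.p6, from 5′ to 3′ on the strand of the gene. Capitals mark the letters searched on both strands: the CCAAT box (CCAAT, or ATTGG on the other strand) and the cell cycle homology region, or CHR (TTTGAA or TTCGAA, or TTCAAA on the other strand). Both are elements known from promoters of late cell cycle genes.
Ccnb1 promoter, chr13:100786487-100786636, minus strand: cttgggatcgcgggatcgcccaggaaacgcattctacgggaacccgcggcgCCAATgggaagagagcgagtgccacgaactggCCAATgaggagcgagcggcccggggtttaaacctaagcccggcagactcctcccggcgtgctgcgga
Cdk1 promoter, chr10:69352913-69353062, minus strand: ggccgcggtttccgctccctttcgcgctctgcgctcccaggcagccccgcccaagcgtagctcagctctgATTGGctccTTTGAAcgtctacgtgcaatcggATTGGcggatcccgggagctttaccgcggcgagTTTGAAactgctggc
Ect2 promoter, chr3:27153879-27154028, minus strand: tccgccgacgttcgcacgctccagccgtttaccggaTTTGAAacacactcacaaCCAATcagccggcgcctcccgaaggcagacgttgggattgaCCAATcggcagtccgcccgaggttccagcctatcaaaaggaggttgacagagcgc
Racgap1 promoter, chr15:99651657-99651806, minus strand: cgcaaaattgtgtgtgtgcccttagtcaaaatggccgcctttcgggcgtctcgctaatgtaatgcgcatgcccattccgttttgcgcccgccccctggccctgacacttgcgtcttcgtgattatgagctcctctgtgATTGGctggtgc
Cit promoter, chr5:115845506-115845655, plus strand: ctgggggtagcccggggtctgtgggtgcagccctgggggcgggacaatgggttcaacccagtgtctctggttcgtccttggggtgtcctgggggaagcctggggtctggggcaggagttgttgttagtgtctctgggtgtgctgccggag
Within the 250 bases before the start, 8 of the 10 promoters held CCAAT letters, compared with 34.5% of 27025 genes in the RefSeq table. Ect2 and Prc1 had 2 windows each in that table, and the more upstream is used here. The exceptions were Anln and Cit. Over the 8 libraries, Cit and Cdc25b lay farthest from the mean pattern of the 10 genes, which they help to make up. Cdc25b holds CCAAT letters, while Anln, which lay closer to that pattern than either, holds none. Whether the letters go with the pattern was not tested. CHR letters were in 2 of the 10, Cdk1 and Ect2, compared with 17.5% of all genes in that table. Both also held CCAAT letters, and 6.23% of all genes in that table held both elements. In Ccnb1 the CCAAT letters began 99 and 67 bases before the start. In Cdk1 the CHR letters began 71 and 15 bases before the start. For Ccnb1, Cdk1 and Cit the RefSeq start differs from the gene positions given below, and the printed stretch reaches into those positions. The Ccnb1 letters at 67 bases and the Cdk1 letters at 15 bases fall in that overlap. A match is only a match of letters, and no binding was measured. Other spellings of these elements and the bases after the start were not searched, so a gene without a match may still hold the element. None of the marked stretches overlapped another.

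The 4 mitotic entry genes had lower estimates in cKO, none of which passed the threshold. Ccnb1, the mitotic cyclin (ENSMUSG00000041431, GRCm38 chromosome 13, 100778650 to 100786570, minus strand), was at 185, 181, 191 and 197 CPM in control replicates 1 to 4 and at 169, 188, 186 and 141 CPM in cKO replicates 1 to 4. The cKO values overlapped the control range in replicates 2 and 3, and cKO replicate 4 was the lowest library. On the log2 scale the estimate was −0.14 ± 0.077 (SE; adjusted p = 0.493, edgeR). Without cKO replicate 4 it was −0.05. A processed copy, Ccnb1-ps, had its own row with 82 to 142 counts per library. How reads that match both copies were counted is not given in the sources used here.

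Cdk1, the kinase that cyclin B1 activates (ENSMUSG00000019942, chromosome 10, 69335146 to 69352938, minus strand), had the smallest difference and standard error of the 10 genes. Control libraries were at 188, 184, 179 and 203 CPM and cKO libraries at 177, 190, 184 and 174 CPM. The groups overlapped, and the log2 fold change of −0.06 ± 0.057 (SE; adjusted p = 0.760, edgeR) corresponded to 96.0% of the control level, with a 95% interval from 88.3% to 104%.

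Plk1 (ENSMUSG00000030867, chromosome 7, 122159439 to 122169873, plus strand) was at 103, 100, 97.6 and 107 CPM in controls and at 93.6, 106, 94.1 and 89.5 CPM in cKO. Below every control were 3 of the 4 cKO libraries, while cKO replicate 2 lay inside the control range. Its fitted log2 change was −0.09 ± 0.061 (SE; adjusted p = 0.610, edgeR).

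Cdc25b, the phosphatase gene (ENSMUSG00000027330, chromosome 2, 131186949 to 131198497, plus strand), had the most negative estimate of the 10. It was at 35.5, 35.01, 39.1 and 31.3 CPM in controls and at 30.7, 29.0, 30.7 and 33.0 CPM in cKO. Here control replicate 4 was the low control and cKO replicate 4 the high cKO library, the reverse of the order seen for most of the other genes. This gave a log2 fold change of −0.19 ± 0.073 (SE; unadjusted p = 0.0187, adjusted p = 0.265, edgeR), or 87.6% of the control level with a 95% interval from 78.7% to 97.5%. On the TPM scale 1 cKO library, in place of 3 on the CPM scale, lay below every control.

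The 3 genes of the step that activates RhoA were close to each other in their estimates. Racgap1, the GTPase-activating subunit of centralspindlin (ENSMUSG00000023015, chromosome 15, 99620496 to 99651656, minus strand), was at 176.6, 174.4, 177.0 and 188.3 CPM in controls and at 150.7, 174.2, 165.3 and 146.3 CPM in cKO. It was the 1 gene of the 10 whose groups did not overlap, by a margin of 174.2 against 174.4 CPM, while 3.77% of all genes tested and 7.16% of those with a mean of at least 10 CPM did not overlap in that direction. On the TPM scale its groups overlapped. In log2 terms the fold change was −0.17 ± 0.062 (SE; unadjusted p = 0.0144, adjusted p = 0.235, edgeR), or 88.8% of the control level with a 95% interval from 81.1% to 97.3%.

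Ect2, which encodes the RhoA exchange factor (ENSMUSG00000027699, chromosome 3, 27097222 to 27153878, minus strand), was at 105, 108, 112 and 112 CPM in controls and at 96.0, 110, 97.5 and 86.3 CPM in cKO. Only cKO replicate 2 reached the control range. On the log2 scale the estimate was −0.17 ± 0.067 (SE; unadjusted p = 0.0250, adjusted p = 0.301, edgeR). Without cKO replicate 4 it was −0.10 and without cKO replicate 2 it was −0.23 (adjusted p = 0.551 and 0.104).

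Kif23, the kinesin subunit of centralspindlin (ENSMUSG00000032254, chromosome 9, 61917280 to 61946774, minus strand), was at 120, 119, 111 and 123 CPM in controls and at 107, 120, 108 and 92.6 CPM in cKO. Again 3 of 4 cKO libraries lay below every control. Its fitted log2 change was −0.14 ± 0.069 (SE; adjusted p = 0.405, edgeR), and −0.07 without cKO replicate 4.

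Of the midzone and ring genes, Prc1 and Anln followed the same pattern with smaller estimates. Prc1, the microtubule bundler (ENSMUSG00000038943, chromosome 7, 80294450 to 80316259, plus strand), was at 140, 130, 138 and 155 CPM in controls and at 134, 147, 132 and 119 CPM in cKO. Only cKO replicate 4 was outside the control range. Its log2 fold change was −0.08 ± 0.069 (SE; adjusted p = 0.707, edgeR). Anln, the ring scaffold gene (ENSMUSG00000036777, chromosome 9, 22332012 to 22389188, minus strand), was at 150, 152, 149 and 163 CPM in controls and at 143, 160, 140 and 124 CPM in cKO. Its log2 fold change was −0.12 ± 0.069 (SE; adjusted p = 0.546, edgeR), and −0.05 without cKO replicate 4.

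Cit, which encodes citron kinase of the midbody (ENSMUSG00000029516, chromosome 5, 115845644 to 116008947, plus strand), was the gene with a positive estimate. It was at 53.3, 55.9, 48.4 and 49.4 CPM in controls and at 54.0, 57.6, 47.0 and 57.8 CPM in cKO. The cKO group held both the lowest and the highest library, and the groups overlapped. This gave a log2 fold change of 0.06 ± 0.072 (SE; adjusted p = 0.799, edgeR), with an interval from 94.0% to 116% of the control level.

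**Figure D2:**
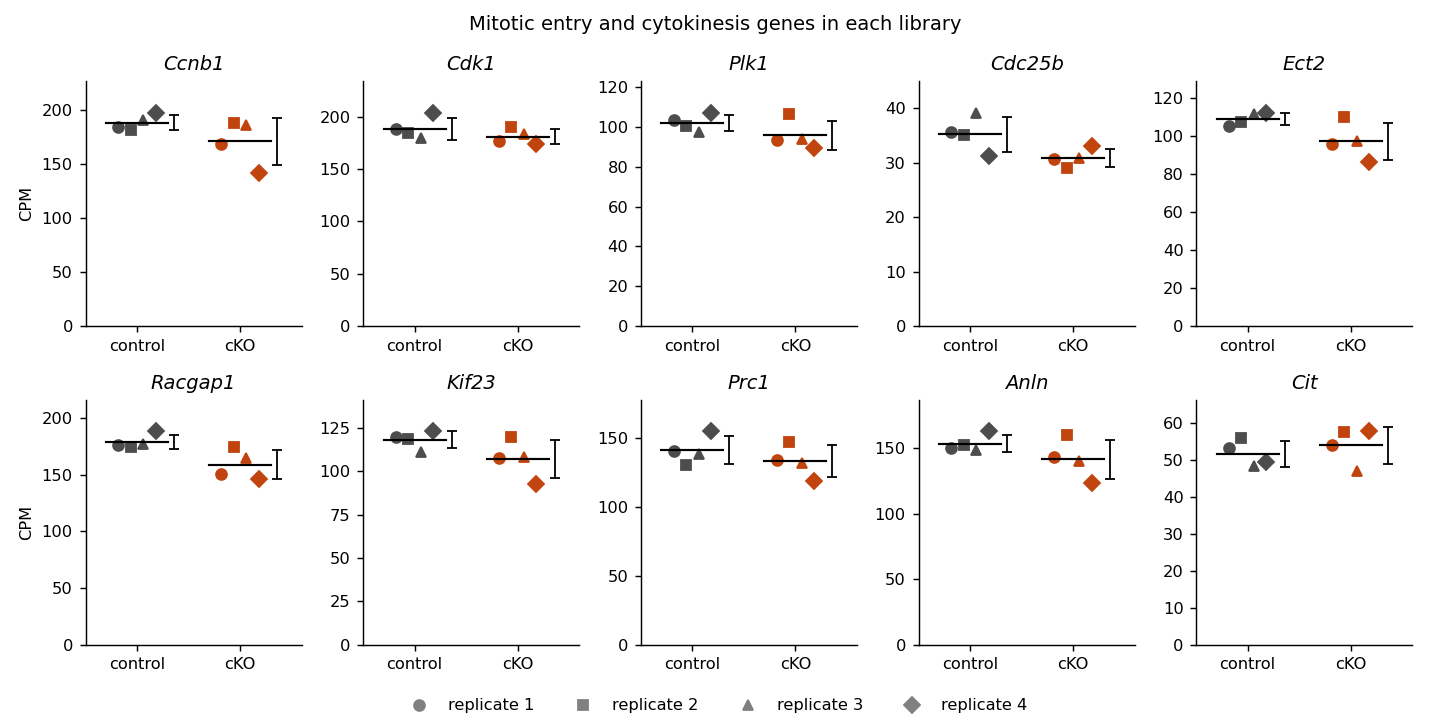
Level of each of the 10 genes (CPM, vertical axes from 0) in the 4 control and the 4 cKO libraries, with the replicate given by the symbol, the group mean as a line and the SD as a bar. In 8 panels cKO replicate 4 (diamond) is the lowest of the 8 libraries, and in Cit it is the highest.

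The genes that differ from that pattern stand out when libraries are compared across genes. Relative to the control mean, the 10 genes averaged −0.12, 0.01, −0.11 and −0.22 on the log2 CPM scale in cKO replicates 1 to 4, and −0.004, −0.02, −0.02 and 0.04 in control replicates 1 to 4. The SD of that average was 0.092 among cKO and 0.028 among control libraries. Control replicate 4 was the highest library for 8 of the genes and cKO replicate 4 the lowest for 8, the exceptions being Cdc25b and Cit in both cases. In cKO replicate 4 the relative level reached −0.41 for Ccnb1, −0.35 for Kif23 and −0.34 for Ect2, but 0.16 for Cit. Without this library, the median log2 fold change of the 10 genes was −0.05, and 9 of 10 were still below 0. Without cKO replicate 2, the library closest to controls, the median was −0.17.

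**Figure D3:**
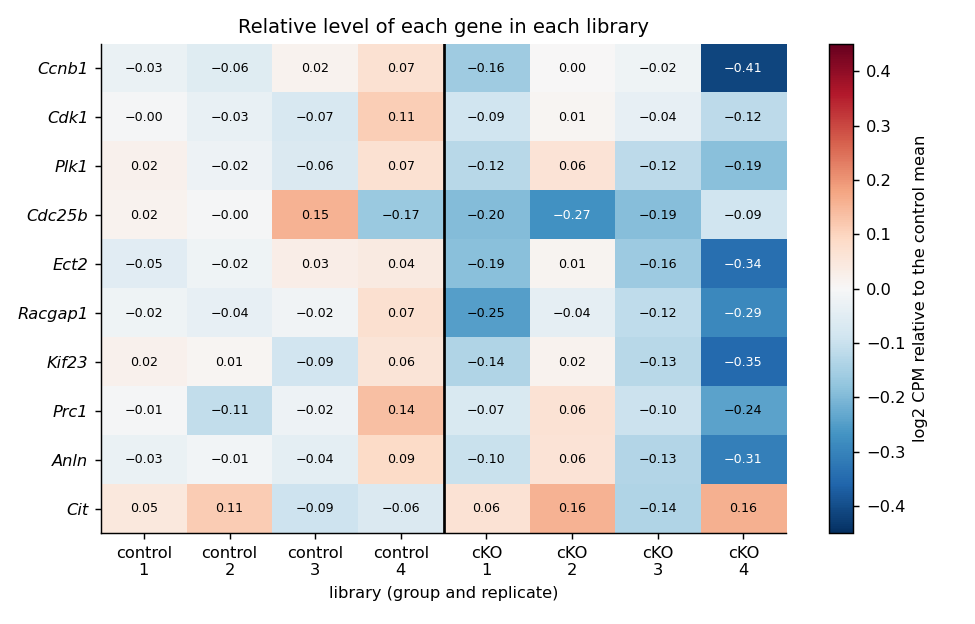
Log2 CPM of each gene (rows) in each library (columns, by group and replicate) relative to the control mean of that gene. The column of cKO replicate 4 holds the lowest values, down to −0.41 for Ccnb1, and the column of cKO replicate 2 lies near 0 except for Cdc25b (−0.27) and Cit (0.16).

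Markers of other cells in the tissue moved with the group and between libraries. All 12 endothelial and endocardial markers had higher estimates in cKO, 6 of them past the threshold, and their summed level was 1539 to 1824 CPM in controls and 1950 to 2476 CPM in cKO. Their average relative to the control mean was 0.48, 0.23, 0.18 and 0.56 on the log2 scale in cKO replicates 1 to 4. In the same libraries the 10 genes averaged −0.12, 0.01, −0.11 and −0.22. Among cKO libraries, replicate 4 had the highest endothelial average and the lowest average of the 10 genes. Replicate 1 came next in both of these orders. Replicate 3 had the lowest endothelial average, and replicate 2 the highest average of the 10 genes. All 10 macrophage markers had higher estimates in cKO as well, with 2 past the threshold and a summed level of 31.2 to 40.6 CPM in controls and 47.0 to 73.0 CPM in cKO. Much of that sum was Lyz2 (means of 29.9 and 36.5 CPM, log2 fold change 0.29), while the median log2 fold change of the list was 1.78. The 10 erythroid markers, with 0 past the threshold, summed to 1536 to 4749 CPM in controls and 1400 to 4909 CPM in cKO, and their average was highest in cKO replicate 4, at 1.07. Each of the 6 megakaryocyte markers had a higher estimate in cKO and none passed, with sums of 21.0 to 53.4 CPM in controls and 34.6 to 113 CPM in cKO. Cardiomyocyte markers averaged −0.05, −0.04, −0.02 and −0.07 in cKO replicates 1 to 4, with 0 of 12 past the threshold. In epicardial and mesenchymal lists 0 of 7 and 1 of 8 genes passed, and in a hepatic and yolk sac list 0 of 7. Epicardial markers summed to 370.0 to 410.3 CPM in controls and 276 to 395 CPM in cKO, and mesenchymal markers to 1909 to 2229 CPM and 2288 to 2770 CPM. The hepatic and yolk sac sum was 14.4 to 43.6 CPM in controls and 13.1 to 19.4 CPM in cKO. The part of these cells in the levels of the 10 genes was not tested. In RNA from whole tissue, fewer dividing cells and less RNA per dividing cell cannot be told apart.

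General cycling genes gave a reference for the same libraries. For a list of 10 such genes, among them Mki67 and Top2a, the average relative to control was −0.04, 0.04, −0.06 and −0.25 in cKO replicates 1 to 4, so cKO replicate 4 was again low. The list had 8 of 10 estimates below 0, a median log2 fold change of −0.07, and 0 genes past the threshold. Its lowest and highest estimates were Rrm2, a subunit gene of ribonucleotide reductase (−0.25, adjusted p = 0.259), and Tyms, the thymidylate synthase gene (0.05, adjusted p = 0.798). Rrm2 ranged over 241 to 263 CPM in controls and 161 to 248 CPM in cKO.

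Levels between genes were compared per transcript length, in TPM as deposited. From highest to lowest mean over the 8 libraries, the order was Ccnb1 (134 TPM), Racgap1 (101), Prc1 (100.3), Plk1 (90.4), Cdk1 (75.3), Kif23 (57.20), Anln (57.17), Ect2 (46.3), Cdc25b (20.2) and Cit (9.9995, all in TPM). The highest level was 13.4 times the lowest. Racgap1 and Prc1 overlapped in both groups, as did Kif23 and Anln, and within each of these pairs the order in cKO was the reverse of that in controls. Prc1 and Plk1, and Anln and Ect2, were separated in controls and overlapped in cKO. The other neighbours were separated in both groups. Ccnb1 was at 139 ± 2.64 TPM in controls and 129.97 ± 16.5 TPM in cKO, and Cit at 9.65 ± 0.717 TPM and 10.4 ± 1.22 TPM (SD, n = 4 each). On this scale cKO replicate 2 was the highest library for 5 of the 10 genes and cKO replicate 4 the lowest for 7.

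**Figure D4:**
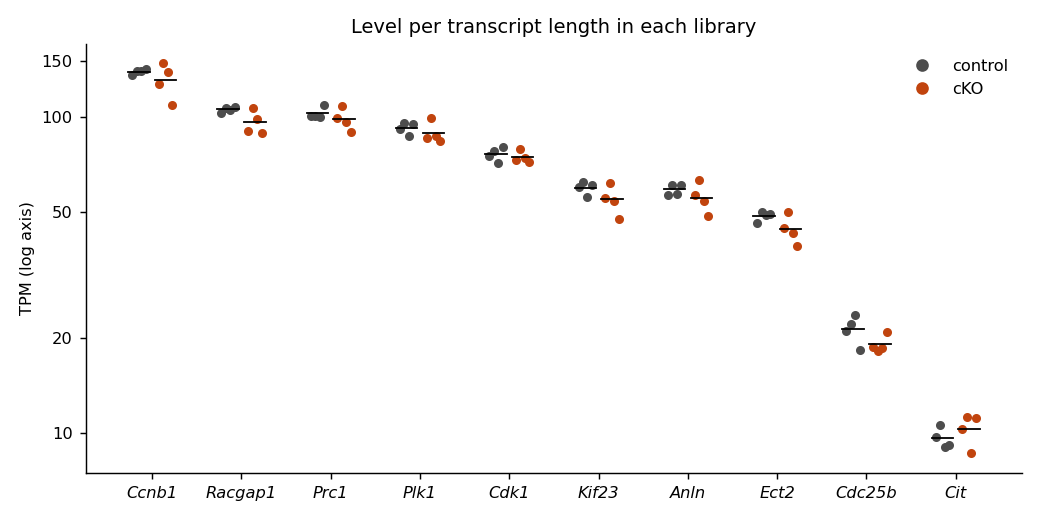
TPM (vertical log axis) of each gene in the 4 control and 4 cKO libraries, ordered by mean level, with group means as lines. Ccnb1 is highest and Cit lowest in both groups, and the cKO points of most genes spread more widely than the control points.

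Over 5 lists of the wider machinery, for mitotic entry, mitotic exit, RhoA activation and central spindle, contractile ring and septins, and abscission, together with the cycling genes, 132 genes were tested. None passed the threshold by edgeR, and the lowest adjusted p was 0.0626. By edgeR, 28 had an unadjusted p under 0.05 (12.8% of all genes tested did), 25 of these with lower estimates in cKO. Lower at that level were 6.2% of all genes tested and 11.4% of genes with a mean of at least 10 CPM. DESeq2 called 5, where it called 5.46% of all the genes it tested. Of the 122 genes that are not among the 10, 87 had estimates below 0, with a median of −0.06, where 59.2% of genes with a mean of at least 10 CPM were below 0, with a median of −0.02.

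In the mitotic entry list, 29 of 31 estimates were below 0, with a median log2 fold change of −0.10. The lowest was Ccna2, the gene of cyclin A2, with 195 to 217 CPM in controls against 146 to 188 CPM in cKO, without overlap (log2 fold change −0.27 ± 0.075 SE, adjusted p = 0.109, edgeR). The highest was Lin52, a subunit gene of the MuvB complex that binds cell cycle promoters (0.06, adjusted p = 0.889). In the mitotic exit list, 17 of 23 were below 0 (median −0.07). Fzr1, which encodes the CDH1 activator of the anaphase-promoting complex, covered 107 to 114 CPM in controls against 88.0 to 99.0 CPM in cKO, without overlap (log2 fold change −0.23 ± 0.055 SE, adjusted p = 0.0626, edgeR). Pttg1, the securin gene, had the highest estimate of that list (0.11, adjusted p = 0.524).

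In the list for RhoA activation and the central spindle, 13 of 18 estimates were below 0 (median −0.09), from Kif18a, a kinesin gene (−0.23, adjusted p = 0.382), to Arhgef2, an exchange factor gene (0.13, adjusted p = 0.404). Rhoa itself had 260 to 280 CPM in controls against 256 to 273 CPM in cKO. In the contractile ring and septin list, 12 of 22 were below 0 and 10 above (median −0.01). Its lowest estimate was Myl12b, a myosin regulatory light chain gene with a near-identical relative, Myl12a. How reads that match both genes were counted is not given in the sources used here, and their effect was not tested. Myl12b had 2.264 to 3.09 CPM in controls against 2.04 to 2.260 CPM in cKO (−0.39, adjusted p = 0.324). The highest estimate was Myh9, the nonmuscle myosin heavy chain gene, with 363 to 417 CPM in controls against 369 to 561 CPM in cKO (0.33, adjusted p = 0.146). Myh9 is also expressed in endothelial and blood cells, whose marker levels in these libraries are given above. The part of these cells in the Myh9 level was not tested. In the abscission list, 19 of 30 were below 0 (median −0.06). Cep55, which recruits the ESCRT machinery to the midbody, had the lowest estimate (−0.16, adjusted p = 0.355) and Mical3 the highest (0.15, adjusted p = 0.311).

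**Figure D5:**
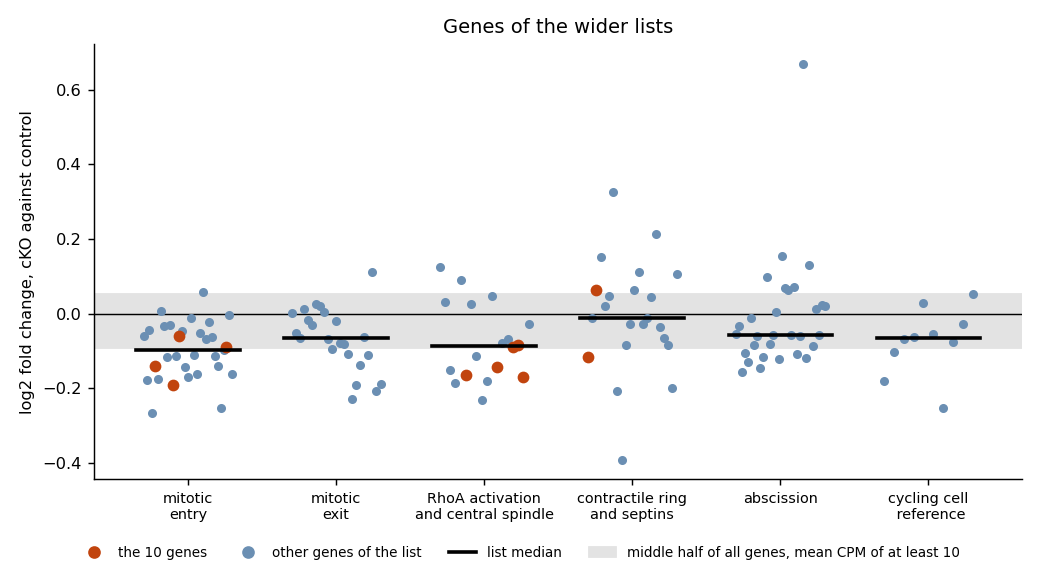
Log2 fold change (cKO against control, vertical axis) of each gene tested in the 6 lists, with the 10 genes in red, list medians as black bars and a grey band for the quartiles of all genes with a mean of at least 10 CPM. List medians lie between −0.10 and −0.01, and no gene shown passed the threshold.

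Genes whose pattern over the 8 libraries was most like the mean pattern of the 10 genes were sought among 9848 others with a mean of at least 10 CPM, by the root mean square difference of log2 CPM after centring each gene. The closest were Umps (0.021), Smg5 (0.021), E2f1 (0.021), Elavl1 (0.025) and Taf5l (0.025), while the median of all candidates was 0.11. None of them passed the threshold (adjusted p from 0.354 to 0.634 by edgeR), and their log2 fold changes were −0.10, −0.09, −0.13, −0.10 and −0.09. Among the 10 genes, which make up that mean, Plk1 was nearest (0.028), while Cdc25b (0.15) and Cit (0.15) lay farther from it than the median candidate.

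Overlapping genes could add reads where strand was not used in counting, which the sources used here do not state. On the opposite strand, Prc1 overlaps Rccd1 (705 counts on average, compared with 7035 for Prc1) and Cdc25b overlaps Spef1 (174 counts, compared with 1707). The other overlapping genes of the 10 had 1.25 to 25.9 counts on average.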

How the data were processed

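RNA from ventricles at E10.5 was sequenced in 4 cKO and 4 control libraries (polyA-selected). Raw counts of reads per gene, and TPM values in a second table, were deposited by the authors with 1 column per library. The submitters' processing notes list Trim Galore 0.6.7, HISAT2 2.2.1, StringTie 2.2.1 and featureCounts, and the methods name an nf-core workflow. These notes name GRCm39, yet the starts of 87.9% of 36455 genes in the TPM table lay at most 1000 bases from the GRCm38 annotation and of 3.27% from GRCm39, so positions are given as GRCm38.

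Counts were fitted with edgeR 4.0.16 in R 4.3.3 (TMM, quasi-likelihood F test, condition only) over 26820 genes whose counts summed to 8 or more, as the study filtered, with Benjamini-Hochberg adjustment over all of them. Standard errors were the absolute log2 fold change over the square root of F. Log2 CPM used a prior count of 2. Alternatives used DESeq2 1.42.0, limma 3.58.1 (voom, or log2 TPM with pseudocounts of 1 and 0.1), other scalings and filters, a replicate block and each library left out. Fits were tested on simulated data. No 2 libraries of a group were copies (chi-square per degree of freedom 18.6 to 68.1 over 12 pairs).

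The 10 genes, the lists and the markers were chosen with earlier results of these data known. Beside the 10 genes and Pkn2, the text names the lowest and highest estimate of each pathway list (mean of at least 1 CPM), any pathway gene past the threshold, and the 5 most alike in pattern. Rhoa, Mki67, Top2a, Ccnb2, Wee1, Cdc25a, Cdc25c and Lyz2 were named after their values were seen. Also named are Ccnb1-ps, Myl12a, the genes that overlap Prc1 and Cdc25b, and pathway genes that passed only under an alternative.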

Additional observations from a re-analysis of the deposited data

How the results depend on the processing

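The count of the 10 genes past the threshold was 0 under all 18 alternatives, 9 of 10 estimates were below 0 in each, and no gene of the 10 changed sign. Their median log2 fold change ran from −0.17 (without cKO replicate 2) to −0.05 (without cKO replicate 4), and from −0.14 to −0.09 with other tools, scalings, filters or the block. The lowest adjusted p of any of the 10 was 0.104, for Ect2 without cKO replicate 2. Pkn2 passed in each, with −0.86 to −0.80.

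Counts over all genes depended on the tool and on single libraries, and the causes were not tested. Against 230 genes past the FDR threshold and 98 also past 1.5-fold, DESeq2 gave 867 and 230, no filter on low counts 878 and 366, limma on log2 TPM 2 and 1 (pseudocount 1) or 5 and 4 (pseudocount 0.1), and limma-voom 62 past both. With 1 library left out, the counts ran from 68 (without control replicate 1) to 761 (without cKO replicate 3), and from 32 to 303 past both for the same libraries. They were also at least 1.5 times lower without control replicate 2 (149 past the FDR threshold), 3 (84), 4 (80) or cKO replicate 1 (79).

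In the wider lists, 0 of 132 genes passed by edgeR and 0 to 3 with 1 library left out. DESeq2, which called 5.46% of the genes it tested, called 5 (Ccna2, Fzr1, Myl12a and Septin8 lower, Myh9 higher). The fit without a filter called 4 (Ccna2, Fzr1 and Nek2 lower, Myh9 higher), where it called 878 of all 33484 genes. Without cKO replicate 3, Ccna2 (lower), Myh9 and Septin11 (higher) passed, where 761 of all 26788 genes did. Without cKO replicate 4, Fzr1 passed, where 235 of all 26672 genes did. Some of these genes were named after their values were seen.

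Replicate numbers gave no sign of pairing the libraries: same-number correlations of deviations were −0.30, −0.05, 0.04 and −0.20 over 9858 genes. Of the 4 cKO libraries, 0 correlated best with their own number. With 4 libraries per group and litters not given, these values cannot exclude a pairing. With the number as a replicate block, 380 genes passed, 168 past both, and 1 of the wider lists (Myh9).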

Other observations

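Other genes of the mitotic entry list were looked at after their values were seen. Ccnb2, a second mitotic B-type cyclin gene, was at 93.2 to 94.7 CPM in controls and 77.7 to 89.3 CPM in cKO, without overlap, with a log2 fold change of −0.17 ± 0.060 (SE; adjusted p = 0.201, edgeR). Wee1, the kinase gene that opposes CDC25 phosphatases, was at 46.1 to 51.3 CPM in controls and 40.3 to 45.3 CPM in cKO, also without overlap (log2 fold change −0.16, adjusted p = 0.253). Of the other CDC25 genes, Cdc25a was at 68.7 to 70.3 CPM in controls and 65.0 to 70.5 CPM in cKO (−0.03, adjusted p = 0.887), and Cdc25c at 27.9 to 30.6 CPM and 22.8 to 31.3 CPM (−0.11, adjusted p = 0.657). None of these genes passed the threshold. In the whole mitotic entry list 5 of 31 genes were without overlap and lower in cKO, as were 7.16% of all genes with a mean of at least 10 CPM.

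Ratios between partner genes were taken within each library on the TPM scale. The ratio of Kif23 to Racgap1, the subunits of centralspindlin, was 0.566 ± 0.025 in controls and 0.571 ± 0.034 in cKO (SD, n = 4 each). The ratio of Ccnb1 to Cdk1 was 1.82 ± 0.082 in controls and 1.74 ± 0.17 in cKO. In cKO replicate 4 it was 1.51, the lowest of the 8 libraries, and in the other cKO libraries 1.73 to 1.86. These ratios were given as values and were not tested.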
